A study of Mus musculus with 2 samples.

Results

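The neurotrophin system is described here through 5 genes: the ligand genes Bdnf and Ntf3, and the receptor genes Ntrk2, Ntrk3 and Ngfr. They were taken as a list, by name, out of 21938 protein-coding genes on 21 chromosomes, and their transcription start sites (TSSs) came from GENCODE M21 on the mouse build mm10. Starts at most 150 bp apart were joined into 1 promoter with a window of 500 bp to each side, which gave the 5 genes 34 promoters out of 60755 for all protein-coding genes. Promoters are numbered from the 5′ end of each gene, and the neighbourhood of a gene is its body plus 10 kb to each side.

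The measurements are DNase-seq of whole frontal cortex from female B6CASTF1/J mice, the F1 of a cross between B6 and CAST strains, 36 days old. In this assay DNase I cuts nuclear DNA where it is exposed, runs of frequent cuts are called as peaks of accessible chromatin, and short protected stretches within accessible DNA are called as footprints. There is 1 group with 2 biological replicates and no other condition, so counts, values and the spread between the 2 libraries are given, and no test between groups was possible. Both libraries carry the same donor label, so it is not known whether they came from separate animals, the alleles of the 2 parents were not separated, and all cell types of the tissue were pooled.

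Neurotrophins are secreted growth factors made as precursors and cleaved to mature ligands, which act on TRK receptor tyrosine kinases and on the p75 receptor. In the cortex, brain-derived neurotrophic factor is made mainly by neurons, in an amount that follows their activity, and it supports the survival of neurons and the strength of their synapses. The rodent Bdnf gene is known for its row of alternative promoters, each with its own 5′ exon spliced to a common coding exon, so that different stimuli can draw on different starts of the same protein.

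The authors deposited 2 peak lists for each library. The shorter list is called the main list and is meant wherever no list is named. All 11 main peaks of replicate 1 and all 45 of replicate 2 in the neighbourhoods of the 5 genes held a base with a cleavage false discovery rate (FDR) of 0.001 or less. In the longer lists, with 32 and 86 peaks there, every peak held a base at 0.05 or less. Replicate 2 gave more peaks across the genome as well, 66512 against 29700. The peak signal is the authors' density normalized for read depth, in units of their own. It moved in steps of 0.01178 in replicate 1 and 0.009709 in replicate 2, which would be 84.9 M and 103 M tags if 1 step were 1 tag per M. No library total was used here. Among marker genes, promoter peaks stood in both replicates at 4 of 8 excitatory neuron, 4 of 7 astrocyte and 2 of 7 oligodendrocyte lineage markers. They stood at 0 of 8 inhibitory neuron, 0 of 6 microglia, 0 of 6 vascular, 0 of 4 liver and 0 of 5 hindbrain markers. In replicate 2, with or without replicate 1, one stood at 6 of 8 excitatory neuron, 5 of 7 astrocyte, 4 of 7 oligodendrocyte lineage and 3 of 8 inhibitory neuron markers, at 1 of 6 microglia (Aif1, 1.34), 1 of 6 vascular (Kcnj8, 0.777) and 1 of 4 liver markers (Alb, 0.379), and at 0 of 5 hindbrain markers. These 3 genes were named after their values were seen. Over all protein-coding genes the share was 50.8% in both replicates and 60.0% in replicate 2. In both replicates the excitatory neuron and astrocyte counts lay near that share and the others below it. The marker counts are therefore a description and do not establish the tissue.

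The sequences below are some of the peaks described in what follows, and the bases before the start of Bdnf promoter 4. They were read from GRCm38, the same build as the files, 5′ to 3′ on the strand of the gene. GRCm38 is the sequence of the B6 strain. These letters and all motif matches below are therefore those of B6, and CAST variants were not considered. For Bdnf they are the peak before promoter 1, at chr2:109674121-109674409 and called in replicate 2, the intron peak after promoter 3, at chr2:109678141-109678420, and the peak after promoter 7, at chr2:109694987-109695150, both as called in replicate 1 and all on the plus strand. The 250 bases before the start of Bdnf promoter 4, chr2:109692186-109692435 on the plus strand, come from the RefSeq promoter table (GRCm38). For Ntrk2, on the plus strand, there are the intron peaks at chr13:59011537-59011744 and chr13:59073661-59073920. For Ntrk3 and Ngfr, on the minus strand, there are the promoter 2 peak at chr7:78718401-78718612 and the intron peak at chr11:95586360-95586469. Capitals mark the bases that lie in footprints of both replicates in the Bdnf intron peak, the Bdnf peak after promoter 7, Ntrk2 intron peak 2 and the Ngfr intron peak. They mark the bases in a footprint of either replicate in the Bdnf promoter 1 peak, Ntrk2 intron peak 1 and the Ntrk3 promoter 2 peak. At Bdnf promoter 4 they mark CGTCA, the core of a cyclic AMP response element (CRE), TGACG on the opposite strand.
Bdnf promoter 1 peak: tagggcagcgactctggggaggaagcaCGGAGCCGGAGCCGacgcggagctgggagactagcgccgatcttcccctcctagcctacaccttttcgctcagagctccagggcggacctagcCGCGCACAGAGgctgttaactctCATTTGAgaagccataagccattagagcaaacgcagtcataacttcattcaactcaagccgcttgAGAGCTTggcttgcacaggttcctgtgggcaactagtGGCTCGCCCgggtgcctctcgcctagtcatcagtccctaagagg
Bdnf intron peak after promoter 3: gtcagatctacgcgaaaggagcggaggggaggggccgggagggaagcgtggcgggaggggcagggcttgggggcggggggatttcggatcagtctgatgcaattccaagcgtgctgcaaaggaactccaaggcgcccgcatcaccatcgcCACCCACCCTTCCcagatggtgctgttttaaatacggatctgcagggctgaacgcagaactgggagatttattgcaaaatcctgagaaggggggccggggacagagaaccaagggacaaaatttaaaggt
Bdnf promoter 4, bases before the start: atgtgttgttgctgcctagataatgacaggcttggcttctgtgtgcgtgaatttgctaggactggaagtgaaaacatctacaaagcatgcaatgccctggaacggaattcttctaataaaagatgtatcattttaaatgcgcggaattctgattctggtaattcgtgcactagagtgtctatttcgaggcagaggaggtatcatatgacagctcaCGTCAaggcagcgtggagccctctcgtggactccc
Bdnf peak after promoter 7: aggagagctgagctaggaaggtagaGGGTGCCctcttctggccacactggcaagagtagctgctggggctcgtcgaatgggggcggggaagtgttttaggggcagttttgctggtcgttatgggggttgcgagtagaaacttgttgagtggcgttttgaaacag
Ntrk2 intron peak 1: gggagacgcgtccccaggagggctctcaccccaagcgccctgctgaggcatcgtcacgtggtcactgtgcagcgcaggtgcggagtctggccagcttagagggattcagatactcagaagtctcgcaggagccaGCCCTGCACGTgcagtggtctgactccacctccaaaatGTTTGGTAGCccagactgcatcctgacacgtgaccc
Ntrk2 intron peak 2: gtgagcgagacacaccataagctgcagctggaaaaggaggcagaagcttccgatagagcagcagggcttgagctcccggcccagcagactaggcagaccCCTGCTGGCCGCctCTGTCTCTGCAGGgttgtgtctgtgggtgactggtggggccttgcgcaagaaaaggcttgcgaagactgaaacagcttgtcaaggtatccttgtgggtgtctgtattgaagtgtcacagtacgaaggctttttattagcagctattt
Ntrk3 promoter 2 peak: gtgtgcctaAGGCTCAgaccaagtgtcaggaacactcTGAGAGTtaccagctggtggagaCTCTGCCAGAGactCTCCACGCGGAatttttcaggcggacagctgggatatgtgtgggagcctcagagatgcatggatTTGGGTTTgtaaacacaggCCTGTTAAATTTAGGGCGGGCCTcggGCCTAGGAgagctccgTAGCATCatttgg
Ngfr intron peak: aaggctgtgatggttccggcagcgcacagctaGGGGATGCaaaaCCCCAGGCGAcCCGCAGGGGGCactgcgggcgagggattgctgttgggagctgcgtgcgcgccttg

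Of the 5 genes, Bdnf, Ntrk2 and Ntrk3 had a promoter peak in both replicates, Ngfr had one in replicate 2 alone, and Ntf3 had none. That is 3 of 5 in both replicates against 50.8% of all protein-coding genes, 3 of 5 in replicate 1 against 51.0%, and 4 of 5 in replicate 2 against 60.0%, counts that lie near the background. Counted by promoter, 6 of the 34 promoters (17.6%) had a peak in both replicates, against 27.0% of all promoters. In replicate 1 the count was 7 (20.6%, against 27.3% of all), and in replicate 2 it was 16 (47.1%, against 34.6% of all). Neighbouring windows can overlap and share a peak, as some do at Ntrk2 and Ntrk3. The 34 are therefore not separate units, here or in the CpG values below. With the longer lists 13 of the 34 (38.2%) had a peak in both, against 32.6% of all. A base at an FDR of 0.001 or less was found in both replicates at 7 of the 34 (20.6%), against 28.4% of all.

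Promoters with and without a peak differed in CpG content, with ranges that overlapped. The CpG ratio, observed over expected CpG pairs in the window, had a median of 0.64 (range 0.24 to 0.87) over the 17 promoters with a peak in either replicate. It had a median of 0.20 (range 0.045 to 0.73) over the 17 without one. Over all 60755 promoters the median was 0.31, at 0.74 for those with a peak in both replicates and 0.23 for those with a peak in neither. At 16 of the 17 promoters without a peak, no base reached an FDR of 0.05 in either library. Of the 21 promoters with a protein-coding transcript, 6 had a peak in replicate 1 and 14 in replicate 2, against 37.2% and 46.1% of all such promoters. Of the 13 promoters with noncoding transcripts only, 1 and 2 had one, against 10.1% and 14.7%.

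**Figure D1:**
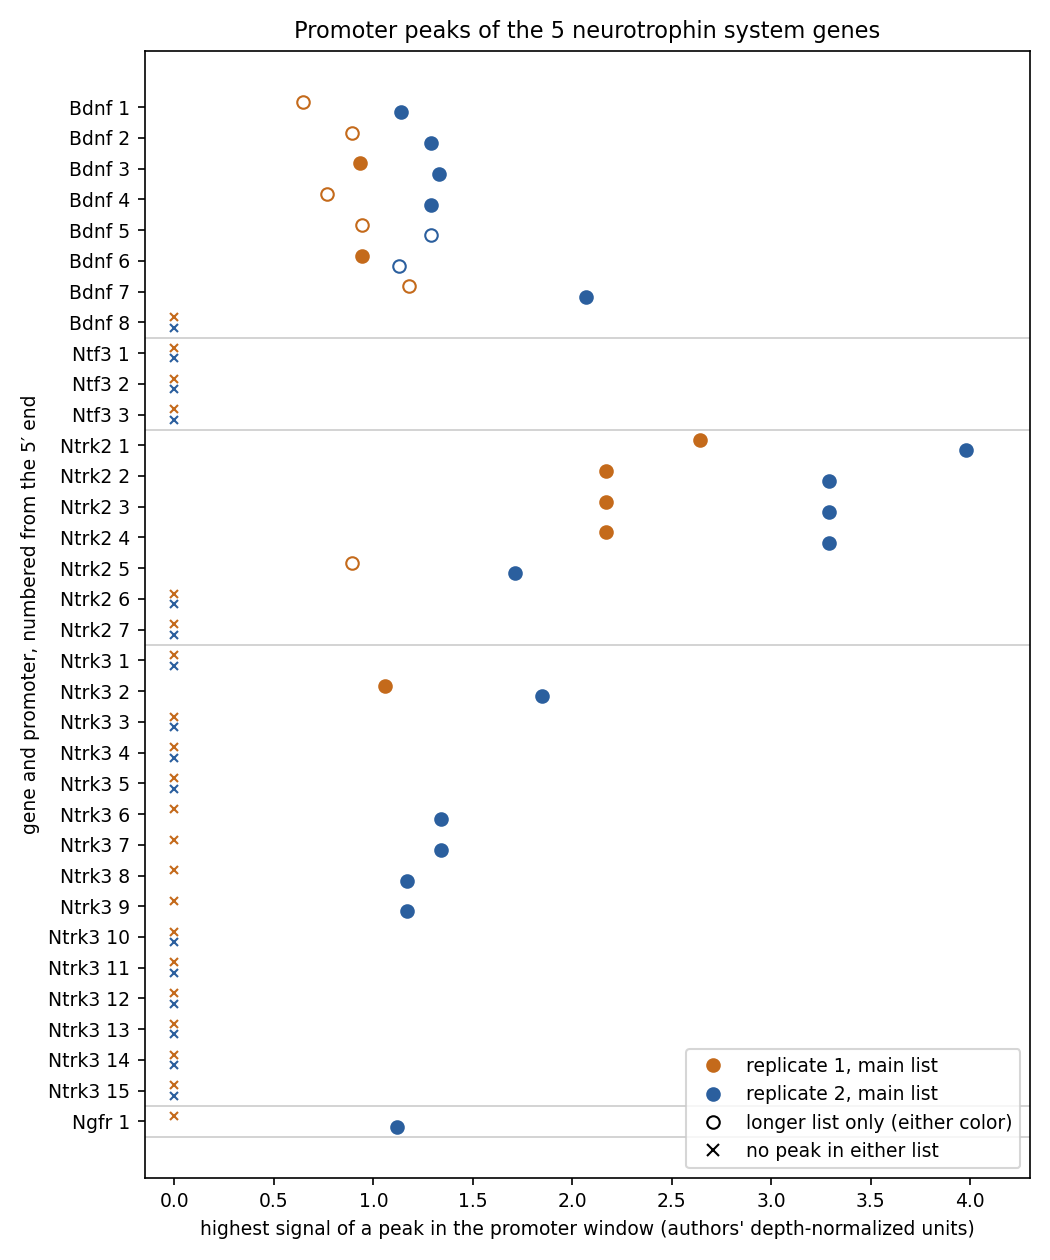
Highest peak signal in the window of each of the 34 promoters (authors' depth-normalized units) in replicates 1 and 2; filled circles are peaks of the main list, open circles peaks found in the longer list only, and crosses at 0 mark promoters with no peak in either list. Ntrk2 promoters 1 to 4 hold the highest values, 2.17 to 3.98, Bdnf promoters 1 to 7 have a peak of one list or the other in both replicates, and the Ntf3 row is empty.

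Bdnf (ENSMUSG00000048482.14, chr2:109674700-109727007, plus strand) spans 52.3 kb and has 11 transcripts from 9 TSSs, in 8 promoters that all start a protein-coding transcript. Peaks of modest signal stood at most of its promoters, but the same promoter passed the stricter list in both libraries only at promoter 3. Peaks were found at promoters 3 and 6 in replicate 1 and at promoters 1, 2, 3, 4 and 7 in replicate 2. Thus 1 of 8 promoters was called in both, where 20.6% of the 17558 promoters of the 2259 genes with 6 or more promoters were. With the longer lists, promoters 1 to 7 had one in both, 7 of 8, promoter 5 by the edges of its neighbours' peaks and, in replicate 2, also by a peak of 68 bp (0.660) inside its window. Of the 2259 genes with 6 or more promoters, 9 (0.398%), Bdnf among them, had a share of 87.5% or more, and the median share of the 2259 was 25%. The cut of 87.5% is the share of Bdnf itself, taken after it was seen, so this is a description.

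The 5′ cluster of Bdnf holds promoters 1 to 3 within a few kb. Promoter 1, at 109674700, had a signal of 0.648 (replicate 1, longer list only) and 1.14 (replicate 2). Its peak lay before the start, with a midpoint at -435 bp in replicate 2, and the lowest FDR in the window was 0.0097 in replicate 1 and 1.5e-06 in replicate 2. The peak is the sequence shown above as the Bdnf promoter 1 peak, in which 48 of 289 bases lay in footprints, all of them of replicate 2. A noncoding transcript, Gm20638, ends shortly upstream of this start and an antisense gene, Gm45346, runs across it from a start at 109676591, and DNase-seq has no strand, so the accessible DNA here cannot be assigned to 1 of these genes.

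At promoter 2 (109675897), which starts 3 transcripts, the signal was 0.895 in replicate 1, again in the longer list only, and 1.29 in replicate 2. The peak lay 413 bp after the start in replicate 2. A footprint 384 bp after the start in replicate 1 overlapped one at 380 bp in replicate 2. The start of the antisense gene Gm45346, at 109676591, is nearer to this peak than that of promoter 2. The peak and its footprints therefore cannot be assigned to 1 of these genes. At promoter 3 (109677032) the signal was 0.931 in replicate 1 and 1.33 in replicate 2, both in the main list. The peak midpoint was 266 bp after the start in replicate 1, in a peak of 100 bp, and 486 bp after it in replicate 2, in a peak of 690 bp. Promoter 3 is thus the 1 Bdnf promoter with a main peak in both libraries. Replicate 1 had 6 footprints in its window and replicate 2 had 0.

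The highest Bdnf signal was in an intron, 1248 bp after the start of promoter 3, with 1.60 in replicate 1 and 2.75 in replicate 2. In the cleavage table this was also the most significant place of the 5′ cluster, with a highest -log10 FDR of 6.71 in replicate 1 and 13.10 in replicate 2, at 3620 and 3630 bp from the TSS of promoter 1. A footprint of 13 bp in replicate 1, at 109678291-109678303, lay within one of 30 bp in replicate 2. The 13 shared bases are the capitals in the sequence of this intron peak, and CAGATG, an E-box of the kind bound by neuronal bHLH factors, follows them directly and lies in the footprint of replicate 2.

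The second cluster, promoters 4 to 7, starts more than 15 kb further on. Promoter 4, at 109692436, is the fourth start from the 5′ end, the place of the promoter that rodent work calls IV and studies most for its response to neuronal activity. The annotation gives no such numerals. It had a signal of 0.766 (replicate 1, longer list only) and 1.29 (replicate 2). It is the 1 Bdnf promoter whose main peak covered the TSS, with a midpoint at -14 bp in replicate 2, and its lowest FDR was 0.0016 in replicate 1 and 2.7e-04 in replicate 2. The CRE core in the sequence of promoter 4 starts 35 bp before the TSS, inside the replicate 2 peak. It lay in no footprint of either library.

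Promoters 5, 6 and 7 share a stretch of accessible DNA. Promoter 5 (109693027) had no main peak, and its highest longer-list signals of 0.942 and 1.29 come from peaks that reach in from its neighbours. Promoter 6 (109693563) had a signal of 0.942 (replicate 1, main list) and 1.13 (replicate 2, longer list only), and the lowest FDR was 5.2e-04 and 8.2e-04. So the call differed at promoter 6 while the FDR values of the 2 libraries were close. A footprint of 7 bp in replicate 1 overlapped one of 10 bp in replicate 2, with midpoints 176 and 168 bp after the start, at a GGGCGG match (109693732-109693737), the letters of the SP and KLF zinc finger families.

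Promoter 7 joins starts at 109694409 and 109694469. Its window held a main peak of 2.07 in replicate 2. In replicate 1 the peak of 1.18, the second highest of the gene there, began just beyond the window, with its midpoint 599 bp after the start, and the longer list puts it inside. The midpoint in replicate 2 was 559 bp after the start. The promoter 7 peaks of the 2 libraries therefore overlap each other, and widening the window to 1000 bp counts this promoter in both. Footprints of 10 bp in each replicate overlapped in this peak, and a match of the CTCF core consensus (109695016-109695027, minus strand) overlapped both of them. Promoter 8 (109709383), the last, had no peak in either list, no base at an FDR of 0.05 and no footprint in either library, and a CpG ratio of 0.20, the lowest of the 8.

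**Figure D2:**
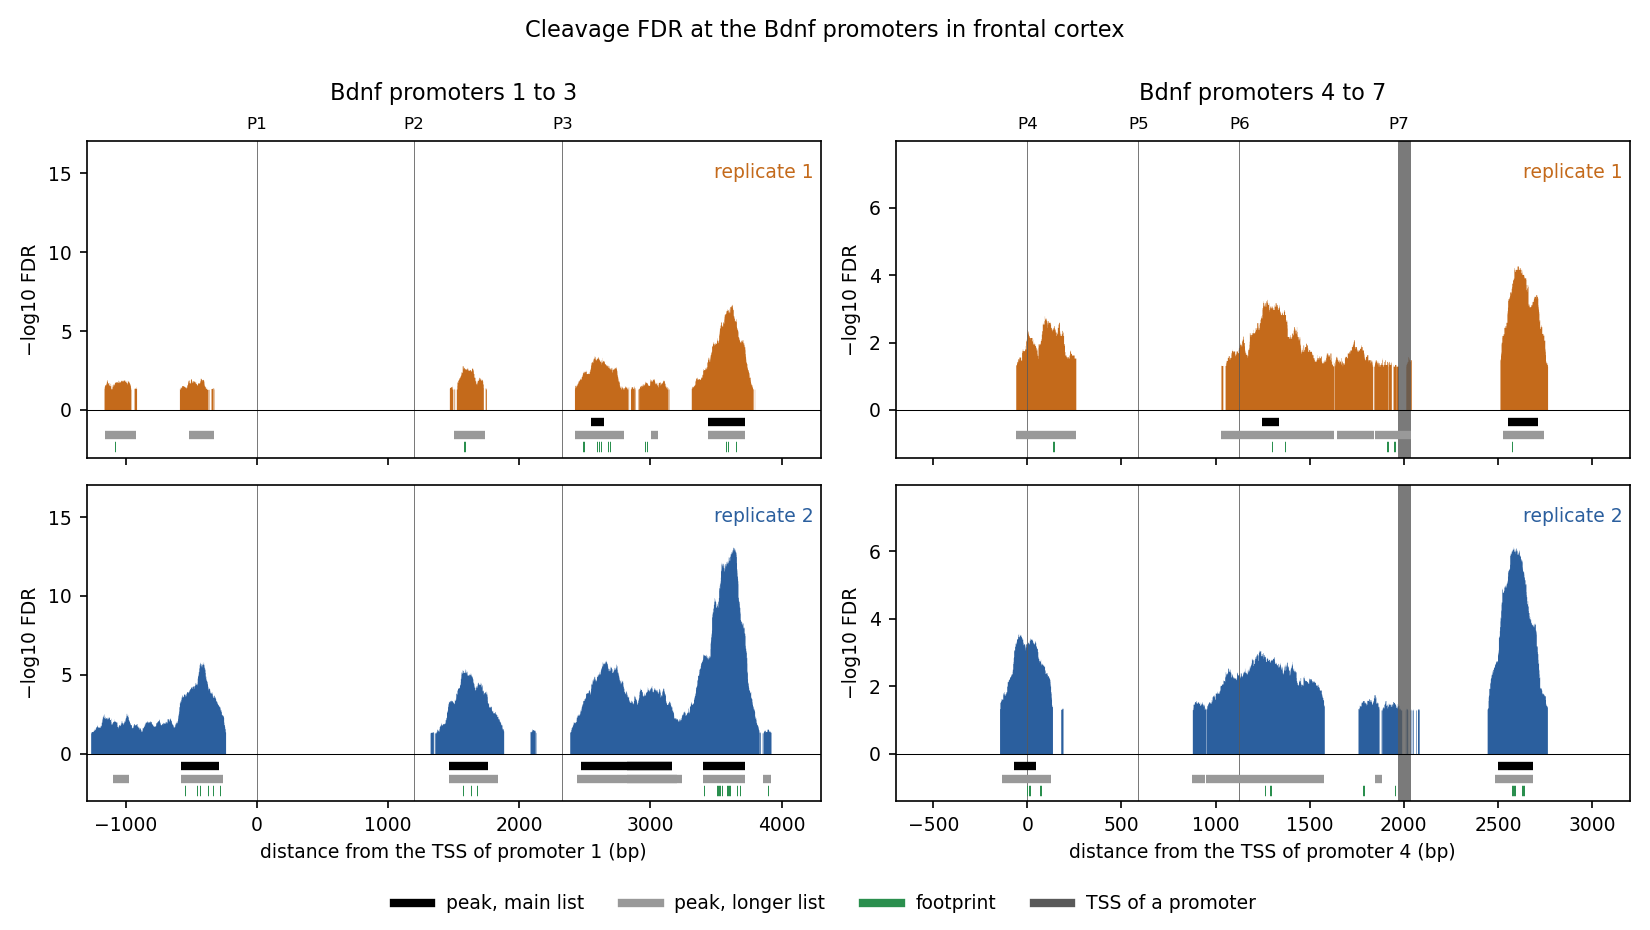
The -log10 of the authors' cleavage FDR along the Bdnf promoters, with distance in bp from the TSS of promoter 1 (left) and of promoter 4 (right), in replicate 1 (upper row) and replicate 2 (lower row); bars under each profile are peaks of the main list, peaks of the longer list and footprints, vertical lines or bands are TSSs, and FDRs above 0.05 are not listed and drawn as 0. The hills stand at the same places in both libraries and are lower in replicate 1 in the 5′ cluster, with the highest hill in the intron after promoter 3 (6.71 in replicate 1 and 13.10 in replicate 2).

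Around the whole Bdnf gene there were 4 peaks in replicate 1 and 7 in replicate 2, of which 3 of replicate 1 overlapped a peak of replicate 2. All 7 peaks of replicate 2 met a longer-list peak of replicate 1. Among 3552 genes with a span within 1.5 times that of Bdnf, the median was 2 peaks in replicate 1 and 3 in replicate 2, and 86.8% and 89.6% of them had fewer than Bdnf. Bdnf had 20 footprints in replicate 1 and 29 in replicate 2, more than 96.7% and 91.9% of these genes, whose medians were 6 and 12. Genes with a like pattern were sought among the 2259 with 6 or more promoters, by the summed difference in the share of promoters with a peak in each replicate. Gpaa1, Ptbp1 and Rgl2 matched Bdnf exactly, with 2 and 5 of 8 promoters in replicates 1 and 2. Pde4b (3 and 7 of 11) and Celf4 (2 and 4 of 7) came next, at distances of 0.0341 and 0.0893. Of the 2259 genes, 59.4% had a lower share than Bdnf in replicate 1 and 92.4% in replicate 2.

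Ntf3 (ENSMUSG00000049107.13, chr6:126101412-126166910, minus strand, 65.5 kb) encodes neurotrophin-3, the ligand that prefers the receptor TrkC. None of its 3 promoters, at 126166910, 126166715 and 126164960, had a peak in either list or a base at an FDR of 0.05 in either library. Their CpG ratios were 0.42, 0.42 and 0.73, so the windows were not poor in CpG beside the median of 0.31 for all promoters. Replicate 1 had no peak and no footprint in the neighbourhood. Replicate 2 had 2 peaks outside the gene, one of 0.660 with its midpoint at -922 bp from the start and one of 0.913 beyond the 3′ end, and 6 footprints. Neither peak had a partner in either list of replicate 1. Among 3119 genes of like span, 17.2% had fewer peaks in replicate 2 and the median was 3.

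Ntrk2 (ENSMUSG00000055254.15, chr13:58806569-59133970, plus strand) encodes TrkB, the receptor for the product of Bdnf, in forms with and without the kinase domain. It spans 327 kb and has 10 transcripts from 9 TSSs in 7 promoters, 5 of them at the 5′ end and 2 further in with noncoding transcripts only. The 5′ end of Ntrk2 was the most accessible place in the 5 genes in both libraries. Of its 7 promoters, 4 had a peak in both replicates, promoters 1 to 4, although in replicate 1 these 4 rest on only 2 peaks. In replicate 2 the window of promoter 4 also meets the peak at promoter 5.

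Promoter 1 of Ntrk2, with 3 TSSs from 58806569 to 58806639, had a signal of 2.64 (replicate 1) and 3.98 (replicate 2), the highest of the 34 promoters in each. These values exceeded 84.4% and 90.7% of the peaks in the lists of the 2 libraries, and the lowest FDR was 1.4e-14 and 5.0e-19. The region of lowest FDR sat on the start, at -12 bp from the TSS in replicate 1 and -3 bp in replicate 2. Footprints of 18 bp in replicate 1 and 27 bp in replicate 2 overlapped at -40 and -39 bp from the nearest TSS. A second overlapping pair, of 19 and 7 bp, overlapped a GGGCGG match at 58806604-58806609. In all, replicate 1 had 7 footprints in the window and replicate 2 had 10.

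Promoters 2, 3 and 4 (58807697, 58807878 and 58808281) share 1 peak, with a signal of 2.17 (replicate 1) and 3.29 (replicate 2), centred near the start of promoter 2. Its lowest FDR was 5.0e-09 in replicate 1 and 1.4e-16 in replicate 2. Only the downstream part of this peak enters the window of promoter 4, where the lowest FDR was 1.4e-08 in replicate 1 and 1.5e-14 in replicate 2. Assigning each peak to its nearest promoter leaves promoters 1 and 2 as the called ones. Promoter 5 (58808691) had a signal of 0.895 (replicate 1, longer list only) and 1.71 (replicate 2), where the peak was centred at -16 bp. The lowest FDR there was 0.0015 and 3.1e-07. Promoters 6 (58835815) and 7 (58871735) had no peak and no base at an FDR of 0.05 in either library, with CpG ratios of 0.21 and 0.27.

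Within the introns of Ntrk2 a further 2 peaks were shared. Intron peak 1 had a signal of 1.33 (replicate 1) and 2.05 (replicate 2). Its sequence holds 3 matches of CACGTG, the E-box of the USF factors, and the second (59011677-59011682) overlapped a footprint of replicate 1 by all but its last base. The sequence is the replicate 1 peak. The replicate 2 peak, which ends earlier, holds 1 of the 3 whole. Of the 29700 peaks of replicate 1, 32 (0.108%) held 3 or more such matches over their full width, with a median width of 330 bp, and this was the 1 such peak no wider than 208 bp. The minimum of 3 matches and the width of 208 bp are the values of this peak itself, chosen after they were seen, so this is a description. Intron peak 2 had a signal of 2.20 (replicate 1) and 3.40 (replicate 2), second in the gene only to promoter 1. It lies inside the antisense gene 4930415C11Rik, and a footprint of 27 bp in replicate 1 overlapped 2 of replicate 2, so that 25 bases are capitals in its sequence.

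Replicate 2 called a further 7 Ntrk2 peaks that overlapped no main peak of replicate 1. Of these, 4 met a longer-list peak of replicate 1 and 3 met none. The 4 were the peak at promoter 5, one of 1.11 at chr13:58866329-58866516, the one of 2.58 at chr13:59092801-59093020 and the one of 2.04 at chr13:58809921-58810300, 1419 bp after promoter 5. The regions of 2.58 and 2.04 each held a footprint in replicate 1 that overlapped one of replicate 2. The 2 peaks of lowest signal among the 5 genes, 0.301 and 0.359, lay near the 3′ end, at chr13:59127206-59127520 and chr13:59128081-59128338, and had no partner in replicate 1. Altogether Ntrk2 had 4 peaks in replicate 1, all shared, and 12 in replicate 2, against medians of 3 and 8 over 654 genes of like span. It had 22 and 56 footprints, against medians of 12 and 32.5.

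**Figure D3:**
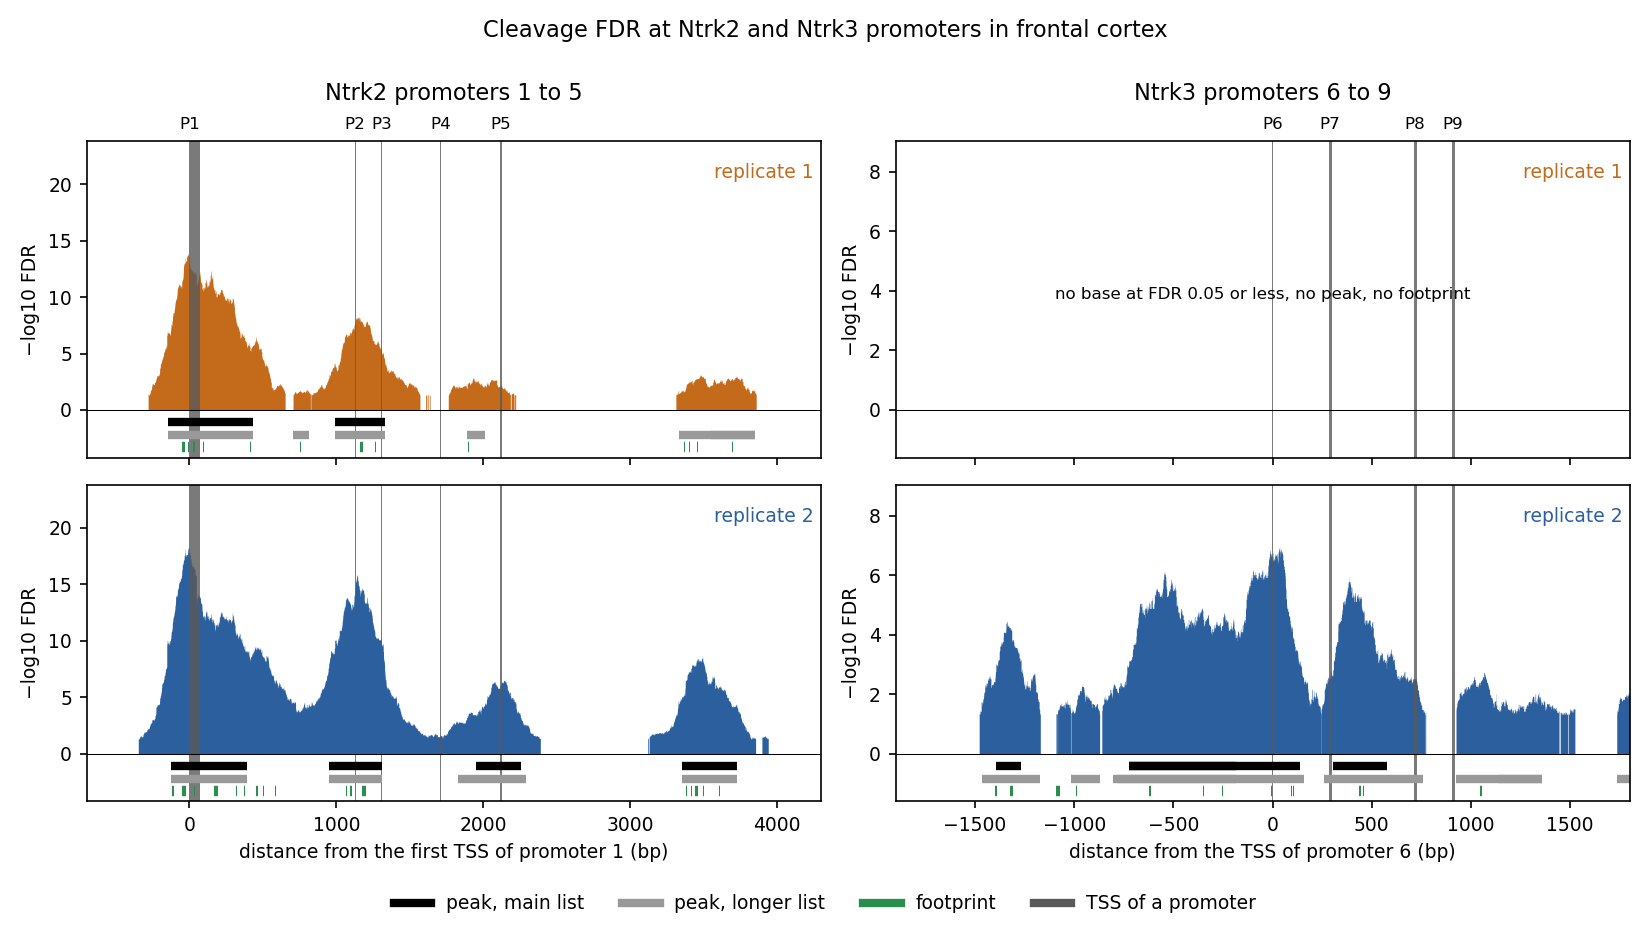
The -log10 of the authors' cleavage FDR along Ntrk2 promoters 1 to 5 (left) and Ntrk3 promoters 6 to 9 (right), with distance in bp from the first TSS shown, in replicate 1 (upper row) and replicate 2 (lower row); bars are peaks of both lists and footprints, and vertical lines or bands are TSSs. At Ntrk2 both libraries show the same hills, up to 13.84 in replicate 1 and 18.30 in replicate 2, while at Ntrk3 replicate 1 has no listed base and replicate 2 reaches 6.94.

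Ntrk3 (ENSMUSG00000059146.12, chr7:78175959-78738012, minus strand) encodes TrkC, the receptor for neurotrophin-3, and is the longest of the 5 genes at 562 kb, with 20 transcripts, 19 TSSs and 15 promoters. The 2 libraries differed most at this gene. Replicate 1 had 2 peaks and replicate 2 had 22, where the medians over 309 genes of like span were 4 and 11, and 17.8% of those genes had fewer peaks than Ntrk3 in replicate 1 but 89.3% in replicate 2. Footprints numbered 11 in replicate 1 and 89 in replicate 2, against medians of 14 and 38. Of the 22 peaks of replicate 2, 2 overlapped a main peak of replicate 1, 6 overlapped a peak of its longer list and 16 overlapped neither.

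The promoters of the protein-coding Ntrk3 transcripts are mainly promoters 7 to 9 (78578408 to 78577783), with the noncoding start of promoter 6 (78578698) beside them. In replicate 2 they had signals of 1.34, 1.34, 1.17 and 1.17 for promoters 6 to 9, from peaks that they share. In replicate 1 there was no peak of either list, no base at an FDR of 0.05 and no footprint in any of the 4 windows. From -1900 to 1800 bp around the TSS of promoter 6, replicate 2 listed 2812 bases at an FDR of 0.05 or less, and the lowest FDR was 1.2e-07. The CpG ratios of the 4 windows, 0.74 to 0.87, include the highest of the 34. An antisense gene, Gm9885, starts at 78578830, so these peaks also lie at its start.

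The 1 Ntrk3 promoter with a peak in both libraries was promoter 2 (78718220), the start of a noncoding transcript, with a signal of 1.06 (replicate 1) and 1.85 (replicate 2). Its lowest FDR was 5.3e-06 in replicate 1 and 2.4e-13 in replicate 2. Its window had a low CpG ratio of 0.24, and its peak lay before the start, with midpoints at -286 and -210 bp. In its sequence 82 of 212 bases lay in a footprint of either library and 6 in footprints of both. The other shared peak overlapped an exon near the 3′ end, at chr7:78191091-78191200, with a signal of 0.766 (replicate 1) and 1.12 (replicate 2). The remaining 10 promoters, 1, 3 to 5 and 10 to 15, had no peak of either list in either library.

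The intron peaks of Ntrk3 in replicate 2 numbered 16 by place and reached 1.71 at chr7:78569001-78569240 and 1.70 at chr7:78595981-78596200. Neither had a partner in any list of replicate 1. The CRE consensus TGACGTCA, matched on both strands, occurred at 1 of the 56 main peaks of the 5 genes, an Ntrk3 intron peak of replicate 2 (chr7:78498418-78498715, signal 0.816), with the match at 78498564-78498571. In the central 200 bp it occurred in 0 of the 11 member peaks of replicate 1, against 1.7% of all peaks. In replicate 2 it occurred in 1 of 45 (2.22%), against 1.03% of all.

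Ngfr (ENSMUSG00000000120.6, chr11:95568818-95587735, minus strand, 18.9 kb) encodes the p75 neurotrophin receptor, a member of the tumor necrosis factor receptor family that binds all neurotrophins and, with sortilin, their precursors. Its single promoter (95587735) had a peak of 1.12 in replicate 2, with a lowest FDR of 4.7e-06. Replicate 1 had no peak of either list and no base at an FDR of 0.05 in the window. A peak in the intron, about 1.3 kb after the start, was shared, with a signal of 1.38 (replicate 1) and 2.27 (replicate 2). So the accessible place common to the 2 libraries at Ngfr was the intron and not the promoter.

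In the Ngfr intron peak all 3 footprints of replicate 1 overlapped one of replicate 2, and 29 of 110 bases lay in footprints of both libraries. A match of the CTCF core consensus, at 95586404-95586415, lay within a footprint of 32 bp in replicate 2. In replicate 1 it filled a footprint of 11 bp and ended on the base between that footprint and the next. That base is the lone lower-case letter between capitals in the sequence. Ngfr had 1 peak in replicate 1 and 2 in replicate 2, against medians of 1 and 2 over 4852 genes of like span.

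**Figure D4:**
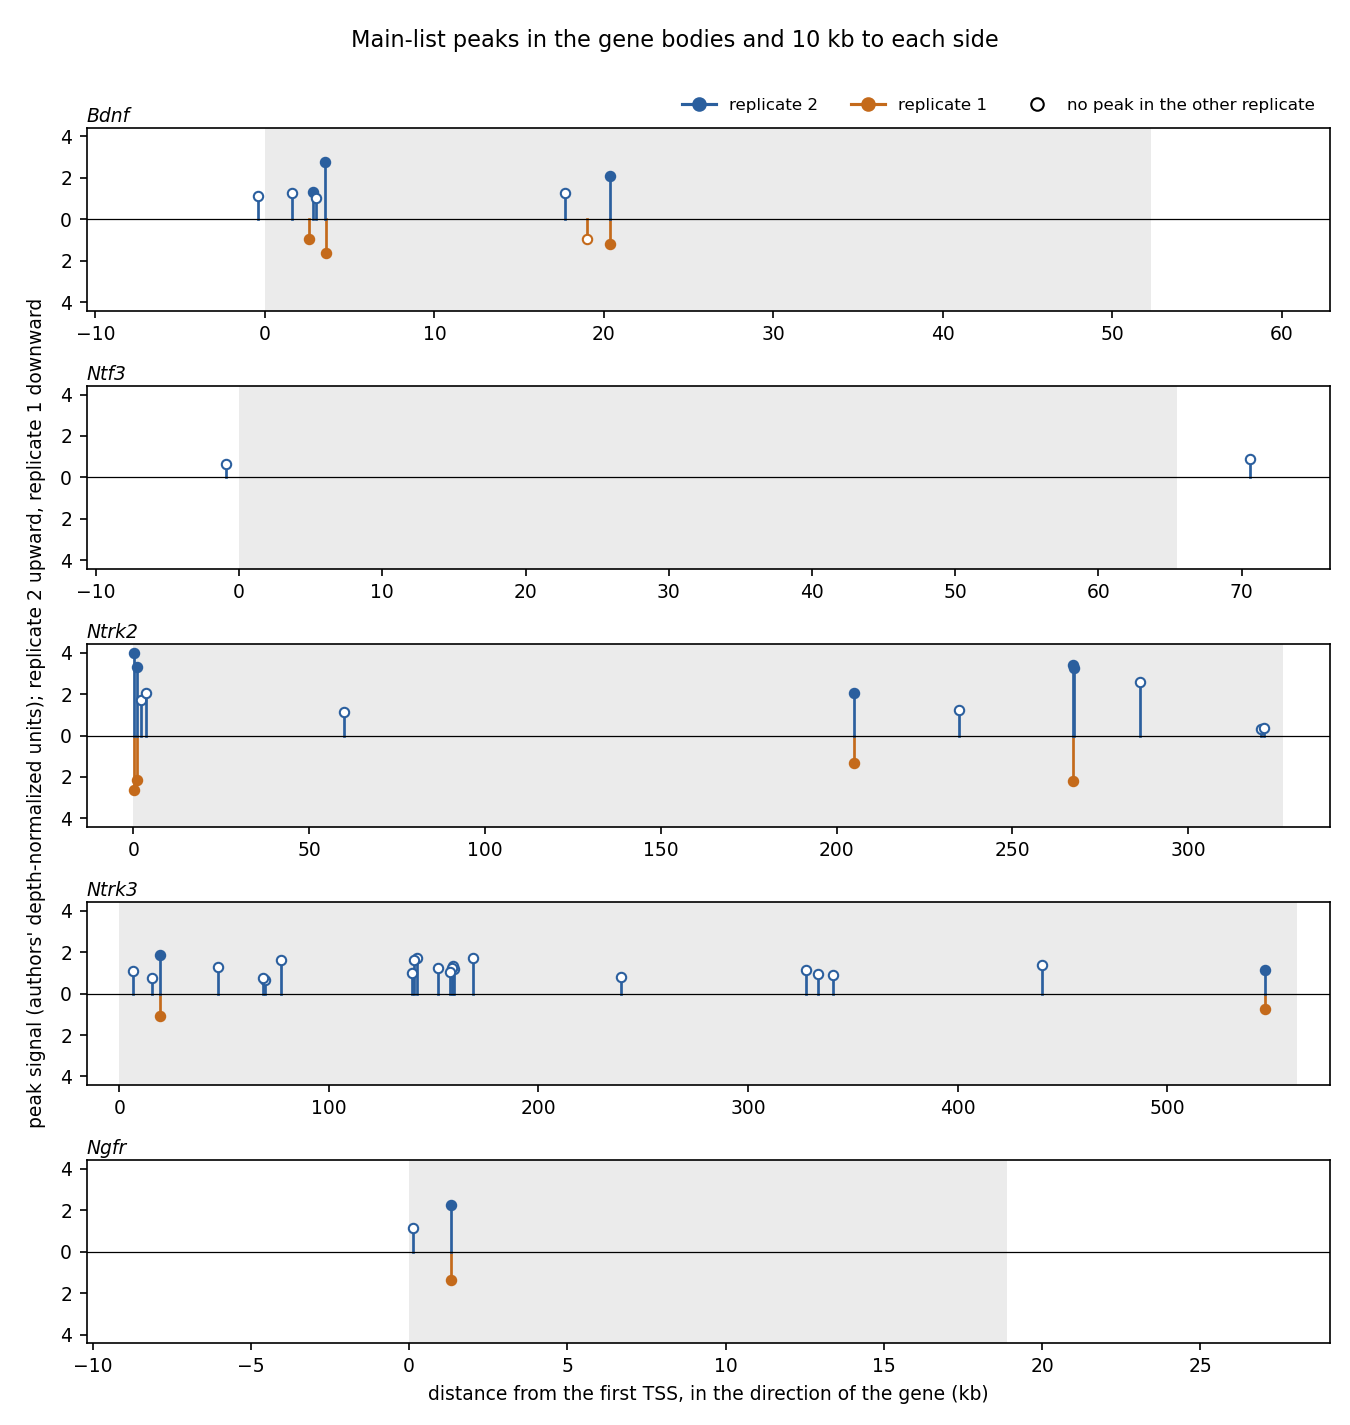
Main-list peaks of the 5 genes by distance in kb from the first TSS, in the direction of the gene; the height is the authors' depth-normalized signal, upward for replicate 2 and downward for replicate 1, the shaded band is the gene body, and open circles have no overlapping main peak in the other replicate. Ntrk3 shows 22 peaks upward and 2 downward, Ntrk2 12 and 4, and Bdnf 7 and 4, with its peaks in the 5′ part of the gene.

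Over the 5 neighbourhoods together, 10 of the 11 peaks of replicate 1 (90.9%) overlapped a peak of replicate 2, against 92.5% of all replicate 1 peaks. Of the 45 peaks of replicate 2, 11 (24.4%) overlapped a peak of replicate 1, against 40.7% of all, and 23 (51.1%) overlapped a peak of its longer list, against 65.9% of all. The 45 include 3 nested pairs and form 42 separate regions. Ntrk3 gave 20 of the 34 unshared peaks, and without it 9 of 23 (39.1%) overlapped a peak of replicate 1. Ntrk3, where 2 of 22 overlapped one, was left out after its values were seen. Leaving it out raises the share by construction, so this is a description. A shared peak was present in 4 of the 5 neighbourhoods, all but that of Ntf3, against 67.2% of all protein-coding genes. By place, the 11 peaks of replicate 1 were 5 at promoters, 5 in introns and 1 in an exon. The 45 of replicate 2 were 14 at promoters, 26 in introns, 3 in exons and 2 outside a gene body.

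At the 10 shared peaks the signal was higher in replicate 2 in 10 of 10, by a median of 0.62 on the log2 scale (1.54-fold) with a range of 0.52 to 0.81. Over all 27469 shared peaks the median was 0.69 (1.61-fold), with quartiles of 0.46 and 0.91, and 96.5% were higher in replicate 2. The members thus lay inside the middle of the general shift between the libraries. The largest steps were at the Bdnf peak after promoter 7 (0.81) and Ntrk3 promoter 2 (0.81), and the smallest at Bdnf promoter 3 (0.52).

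**Figure D5:**
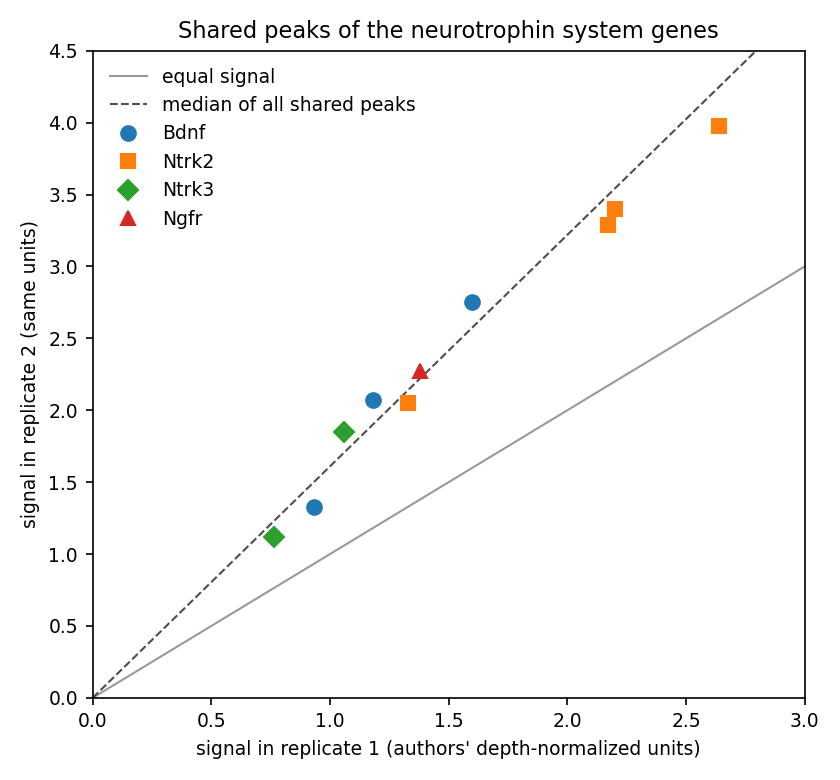
Signal of the 10 shared peaks in replicate 1 (x axis) and replicate 2 (y axis), both in the authors' depth-normalized units, by gene; the solid line marks equal signal and the dashed line the median ratio of all shared peaks in the genome, 1.61-fold. All 10 points lie above the line of equal signal and close to the dashed line.

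Footprints were shared less completely. Of the 56 footprints of replicate 1, 21 (37.5%) overlapped a footprint of replicate 2, against 54.5% of all. Of the 187 of replicate 2, 22 (11.8%) overlapped one of replicate 1, against 23.5% of all. Main peaks of the same library held 50% of the 56 and 64.7% of the 187, against 66.6% and 68.8% of all footprints. By gene, the shared share in replicate 1 was 25% of 20 at Bdnf, 36.4% of 22 at Ntrk2, 45.5% of 11 at Ntrk3 and 100% of 3 at Ngfr.

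Motifs were matched exactly on both strands in the central 200 bp of each peak and 30 bp of each footprint, and a match is a description of letters only. SP and KLF (GGGCGG) occurred in 36.4% of the 11 replicate 1 peaks and 26.7% of the 45 replicate 2 peaks, against 34.1% and 22.6% of all. The CRE core (TGACG, also part of the full CRE) occurred in 18.2% and 24.4%, against 18.8% and 14.2%. The neural E-box (CAGATG) occurred in 18.2% and 24.4%, against 14.3% and 18.9%, and the USF E-box (CACGTG) in 18.2% and 4.44%, against 6.02% and 4.93%. With 11 and 45 peaks, 1 peak moves these shares by 9.09 and 2.22 percentage points. The 45 include 3 nested pairs, so a match can count in both peaks of a pair, as a CRE core did at Ntrk2.

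AP-1 (TGANTCA), EGR (GCGNGGGCG), MEF2, RE1 and the full CTCF consensus had no match in these central windows of member peaks. Over all peaks of replicate 1 they occurred in 5.53%, 4.82%, 2.05%, 0.0337% and 0.0438%, and over all peaks of replicate 2 in 9.70%, 3.09%, 2.56%, 0.0226% and 0.0210%. Outside the central windows, AP-1 matched in 2 Ntrk3 peaks of replicate 2 and EGR in 1. ETS (CCGGAAG) occurred in 0 and 2 member peaks of replicates 1 and 2, against 7.42% and 4.19% of all peaks. NRF1 (GCGCANGCG) occurred in 0 and 1, against 6.06% and 3.32%. The NFI motif (TTGGCA) occurred in 9.09% and 20% of the member peaks, against 10.8% and 14.5%. The CTCF core consensus, added after the sequences had been seen, occurred in 2 and 4 peaks, 18.2% and 8.89%, against 20.6% and 16.2% of all.

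In the RefSeq promoter windows, 250 bases before to 50 after a start, 11 windows matched the members (7 for Bdnf, 2 for Ntf3, 1 each for Ntrk2 and Ngfr). The CRE core occurred in 1 of the 11, Bdnf promoter 4, against 20.8% of 32851 windows, and the full CRE in none, against 1.79%. SP and KLF occurred in 6 of the 11, against 35.7%. The matches at Bdnf promoters 3 and 5 and at Ngfr and Ntf3 lay in no peak of either library, and the match at Ntrk2 promoter 1 lay in peaks of both and overlapped footprints of both.

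The rest of the pathway was taken from a list of 65 further gene symbols, of which 64 are in the annotation. A promoter peak stood in both replicates at 47 of the 64 (73.4%), against 50.8% of all protein-coding genes. In replicate 1 one stood at 48, against 51.0% of all, and in replicate 2 at 54, against 60.0%. The list was chosen with earlier results of these data known and holds many broadly used signalling genes. Among TRK adaptors and signalling genes the count in both replicates was 23 of 27, among known regulators of Bdnf transcription 12 of 15, and among p75 adaptors 4 of 5. Ligands and receptors outside the 5 genes gave 6 of 11, and enzymes that cleave the precursors 2 of 6.

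Among the highest promoter signals of the list were those at Map2k1, the kinase that phosphorylates ERK, with 4.28 in replicate 1 and 9.19 in replicate 2, and at Carf, a factor first described at a Bdnf promoter, with 4.36 and 8.20. These exceed the 2.64 and 3.98 of Ntrk2 promoter 1. Npas4, an activity-dependent factor that acts on Bdnf promoters, had 3.17 in replicate 2 and no promoter peak in replicate 1, and Mef2c and Rest likewise had 1.95 and 0.981 in replicate 2 only. All 3 had a promoter peak of the longer list in replicate 1. These 3 regulators were named after their values were seen. All 15 regulators of Bdnf transcription had a promoter peak in replicate 2, against 60.0% of all protein-coding genes.

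Ntf5, which encodes neurotrophin-4, had no promoter peak in either library. Sort1, which encodes sortilin, the partner of p75 for precursors, had 3.44 in replicate 2 and a peak of the longer list only in replicate 1. A further 7 pathway genes with no promoter peak in either replicate were Akt1, Furin, Mmp3, Mmp9, Plcg2, Plg and Rtn4r. Akt1, Plcg2 and Rtn4r had a promoter peak of the longer list in replicate 2, while Furin, Mmp3, Mmp9 and Plg had none in either list. Furin, Plg, Mmp3 and Mmp9 encode proteases that can cleave precursors of neurotrophins, and Rtn4r encodes the Nogo receptor, which signals together with p75. Of these 7 genes, Mmp3 had no peak in its neighbourhood in either library, and the other 6 had between 1 and 3 shared peaks there.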

How the data were processed

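Frontal cortex DNase-seq of 2 libraries was analysed from the deposited files, all on mm10 per the labels. For each peak the authors deposited a signal, a density they had scaled to read depth. All 568 and 1075 distinct signal values were whole multiples of 1 step per library, within 0.02 steps. The p-value column deposited by the authors is, in the cleavage table, an FDR that ends at 0.05, and in the footprint list a constant 0.01. The sources used here name no aligner, caller or threshold.

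Of the 2 peak lists per library, the one with fewer peaks was taken as main. Overlaps of at least 1 bp were computed with Python 3.11.15, pandas 2.3.3 and bedtools 2.31.1 on GENCODE M21 and GRCm38, and the overlap code was tested on simulated intervals. A gene of like span has a span within 1.5 times the member's. Where several peaks met a promoter, the highest signal was used. There is no test, since 1 group of 2 libraries allows none. The libraries differ in peak number, and what part this has in the differences between them was not tested.

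The 5 genes, the pathway and marker lists, the motifs and the alternatives were chosen with earlier results of these data known. Genes named beyond the 5 are other neurotrophins and receptors (Ntf5 and Sort1), the 3 pathway genes with the highest mean promoter signal, up to 10 pathway genes with no promoter peak, and the 5 genes nearest to Bdnf, with exceptions stated where named. Some genes that this rule selects are not reported here. Alternatives were the longer list, the 50% of peaks with the highest signal, other overlap rules, promoter windows of 250 or 1000 bp, the gene body alone or with 50 kb to each side, other ways of joining and counting starts, footprints inside peaks, the mean signal, the reverse direction and leaving out each replicate. Sequences came from GRCm38 and the RefSeq promoter table, which holds no Ntrk3 entry used here.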

Additional observations from a re-analysis of the deposited data

How the results depend on the processing

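The count of pathway genes with a promoter peak in both replicates, 47, stayed within 1.5 times under all 8 alternatives. The choice of peak list moved the Bdnf result most: 1 promoter in the main lists became 7 in the longer lists and 0 when only the 50% of highest-signal peaks counted, and a window of 1000 bp gave 3. Leaving out a replicate gave 2 to 5 Bdnf promoters, 4 to 5 Ntrk2 promoters and 3 to 4 genes. Only 1 of the 5 genes kept a promoter peak in both replicates with the 50% of highest signal. Ntrk2 promoters numbered 2 rather than 4 when starts within 500 bp were joined, and 2 when a peak counted only for the nearest promoter. The shared peaks of replicate 1, 10 of 11, became 27 of 32 in the longer lists, 5 of 5 among the 50% of highest signal and 16 of 17 with 50 kb to each side. The shared footprints, 21 of 56, became 13 of 28 inside peaks and 34 of 78 with 50 kb to each side. The median log2 ratio of 0.62 moved to 0.75 in the longer lists, beyond the SD of 0.11 over the 10 peaks, and lay between 0.61 and 0.63 under the other 5 alternatives. Requiring the peaks of the replicates to overlap each other, an alternative chosen after seeing the data, moved no count. The causes of these shifts beyond the construction of each alternative were not tested. No paired analysis was possible because there is 1 group.

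No depth stands behind single values, so no interval is given, and a promoter without a peak is one not detected in that library, not one shown to be closed.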
